A study of Mus musculus with 10 samples.

Results

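Conjugation enzymes attach a polar group to drugs, steroids, bilirubin, bile acids and reactive electrophiles, and the products leave the body in bile or urine. The transcripts described here are those of the UDP-glucuronosyltransferases (UGT), which transfer glucuronic acid, of the cytosolic sulfotransferases (SULT), which transfer sulfate, and of the cytosolic and mitochondrial glutathione S-transferases (GST), which transfer glutathione. Papss1 and Papss2, which make the activated sulfate used by every sulfotransferase, were added to them. The liver is the main site of these reactions, and hepatocytes carry most of these enzymes. The members were chosen by gene name alone, as names that begin with Ugt1 to Ugt3, with Sult1 to Sult7, or with Gst, a class letter (a, k, m, o, p, s, t or z) and a number. A member also needed at least 10 counts summed over the 10 libraries. Of the 73 genes with such a name, 57 passed that limit, and they comprised 18 UGT, 14 SULT, 23 GST and 2 PAPSS genes among 22449 genes tested. The 16 genes below the limit had 0 to 7 counts in all and were Ugt1a2, Ugt2a1, Ugt2a2, Sult1c1, Sult2a2, Sult2a4, Sult2a5, Sult2a6, Sult3a2, Sult6b2 and 6 Sult pseudogenes.

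Poly(A) RNA was measured in whole livers of 10 male mice. H3.3 is a variant of histone H3 encoded by H3f3a and H3f3b. The H3.3 KO group comprised 4 livers of mice with floxed alleles of both genes (H3f3a fl/fl, H3f3b fl/fl) that received AAV8-Tbg-Cre. The WT Cre controls were 3 livers of wild-type mice given that same vector. The MCS controls were 3 livers of the floxed mice given AAV8-Tbg-MCS, which carries no Cre. All 10 mice thus carried an AAV8 vector, given at an age of 6 months, and RNA came from livers collected 3 weeks afterwards. The Tbg promoter drives Cre in hepatocytes, so the other cells of the liver keep both genes and their RNA is part of every library. The genotype label of the floxed mice reads HIRA fl/fl although their titles name H3f3a and H3f3b, and the groups followed the titles. The control columns of the deposited tables carry a number only, which was matched to the number in the library names. Comparisons with all 6 controls do not depend on that match, whereas every value for WT Cre or MCS controls alone does.

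Most members lie in tandem gene clusters (GENCODE M21 annotation of mm10). The Ugt1a genes lie at chr1:88055388-88220002, where each first exon has its own start and all share the later exons. The Ugt2b genes and Ugt2a3 lie at chr5:86889767-87424203 and the Ugt3a pair at chr15:9276888-9370955. The Sult2a genes lie at chr7:13796246-14494230, and Sult1b1, Sult1d1 and Sult1e1 at chr5:87513339-87591594. The Gstm genes lie at chr3:107895821-108044894, the Gstp genes at chr19:4035407-4059569, the Gstt genes at chr10:75774115-75837424, and Gsta1, Gsta2 and Gsta4 at chr9:78182774-78355788. Of the 57 members 56 are annotated as protein coding, and Gstm2-ps1 (chr5:116632908-116633564) is a processed pseudogene. Close copies limit what a read can tell. The Ugt1a members share 50.3 to 60.6% of their exon bases with each other on the same strand. Of the windows of 50 bases in a transcript, 90.5% were found in another gene for Gsta1, 54.3% for Gstp2, 49.8% for Gsta2, 46.9% for Gstm2-ps1, 41.7% for Ugt2b5 and 33.7% for Gstp1, against 0% for Gstp3, Ugt2b1 and Sult1d1. How reads with several matches were counted is not given in the sources used here, so the split between such copies is uncertain.

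The 250 bases before the RefSeq transcription start (GRCm38.p6) are shown for the 3 Gstp genes, which all rose in H3.3 KO liver, and for Sult1d1, which fell, and Ugt1a9, which rose. Gstp1 (chr19:4037913-4038162), Gstp2 (chr19:4042222-4042471), Gstp3 (chr19:4059448-4059697) and Sult1d1 (chr5:87569007-87569256) lie on the minus strand, and Ugt1a9 (chr1:88070529-88070778) on the plus strand. Capitals mark letters found on either strand for 5 motifs: TGACNNNGC, the core of the antioxidant response element bound by NRF2; GCGTG, the core of the xenobiotic response element bound by AHR; GTTAATNAT, a site of HNF1; CAAAGTCCA, a site of HNF4A; and TGAGTCA, a site of AP-1, which was added after the sequences had been seen.
Gstp1: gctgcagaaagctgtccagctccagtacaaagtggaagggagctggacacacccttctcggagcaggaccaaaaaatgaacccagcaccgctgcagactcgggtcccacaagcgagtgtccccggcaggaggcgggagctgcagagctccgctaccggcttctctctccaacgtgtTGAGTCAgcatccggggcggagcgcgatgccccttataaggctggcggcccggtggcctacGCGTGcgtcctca
Gstp2: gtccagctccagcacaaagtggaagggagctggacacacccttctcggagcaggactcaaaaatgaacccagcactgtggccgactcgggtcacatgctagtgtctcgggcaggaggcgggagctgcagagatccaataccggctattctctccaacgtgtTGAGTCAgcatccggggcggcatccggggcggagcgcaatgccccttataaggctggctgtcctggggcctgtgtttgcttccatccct
Gstp3: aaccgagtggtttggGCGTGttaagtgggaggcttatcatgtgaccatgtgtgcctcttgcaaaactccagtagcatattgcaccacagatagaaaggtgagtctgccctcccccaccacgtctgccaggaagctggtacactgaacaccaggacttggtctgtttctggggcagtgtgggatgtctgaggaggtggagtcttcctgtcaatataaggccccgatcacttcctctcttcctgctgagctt
Sult1d1: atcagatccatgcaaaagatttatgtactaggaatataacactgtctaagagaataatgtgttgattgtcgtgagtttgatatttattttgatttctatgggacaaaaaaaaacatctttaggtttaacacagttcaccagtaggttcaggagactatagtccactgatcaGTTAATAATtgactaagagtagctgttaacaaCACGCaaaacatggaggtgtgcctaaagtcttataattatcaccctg
Ugt1a9: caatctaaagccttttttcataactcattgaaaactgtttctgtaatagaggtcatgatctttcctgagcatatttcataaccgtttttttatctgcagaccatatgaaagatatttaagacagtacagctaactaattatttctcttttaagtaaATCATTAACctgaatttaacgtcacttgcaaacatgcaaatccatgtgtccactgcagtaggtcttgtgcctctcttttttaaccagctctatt

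The upstream windows of Gstp1 and Gstp2 were 78.9% identical in a global alignment, and both hold TGAGTCA. The window of Gstp3 was 48.7% identical to that of Gstp1 and 50.55% to that of Gstp2, and lacks TGAGTCA. The RefSeq start of Gstp2 lies 3802 bases from the outermost start in GENCODE. An upstream window was found for 49 of the 57 members. The HNF1 letters were in 5 of these 49 windows (10.2%), namely those of Sult1d1, Sult2a3, Ugt1a1, Ugt1a9 and Ugt1a10, against 0.792% of the windows of 27025 genes. Of these 5 members 2 rose, 2 fell and 1 did not pass the test. Ugt1a1, Ugt1a9 and Ugt1a10 lie in the same locus. The windows of Ugt1a9 and Ugt1a10 are nearly the same in the stretch after these letters, so the 5 windows are not independent. GCGTG was in 9 member windows (18.4%, against 28.0% of all), TGACNNNGC in those of Gsta3 and Gstm5 (4.08% against 10.1%), CAAAGTCCA in 0 (against 0.400%) and TGAGTCA in those of Gstm5, Gstp1, Gstp2 and Ugt2b37 (8.16% against 4.47%). A match is a description of the letters and not a measured binding site.

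The libraries held 14998426 to 26096141 counts, of which the members took 1.04 to 1.78%. Levels are given as CPM, that is counts relative to the library size after TMM adjustment, in the usual counts-per-million unit, and differences as log2 fold changes with their standard error (SE). H3f3a was at 25.7 to 30.6% and H3f3b at 24.9 to 35.4% of the control mean in the 4 KO livers. The lists of 7 Kupffer cell and 7 stellate cell markers all rose, with summed levels of 442 to 957 CPM against 187 to 361 CPM in controls and 470 to 741 CPM against 207 to 266 CPM. Of 7 leukocyte markers 5 rose (98.6 to 218 CPM against 39.1 to 79.8 CPM), and none of these 3 lists held a marker at 0 in all libraries. Of 7 cholangiocyte markers 1 rose and 6 did not pass (71.1 to 88.2 CPM against 50 to 80.6 CPM), and of 6 endothelial markers 1 rose and 5 did not pass (178 to 321 CPM against 161 to 204 CPM), while 5 of the 6 rose without KO 1. Of 7 hepatocyte markers 4 fell and 1 rose, and their sum was 88499 to 103698 CPM in KO livers against 107881 to 147738 CPM in controls. At the same test 19.7% of all genes rose and 16.6% fell. In whole liver, fewer hepatocytes and less RNA per hepatocyte cannot be told apart, and the part that the cell mixture plays in the values given here was not tested. KO 1 had the lowest depth (14998426 counts), and among the 17 members that fell it was the KO liver nearest to the controls in 13. Among the 16 that rose the nearest was KO 1 in 6, KO 4 in 5, KO 2 in 3 and KO 3 in 2. The part of KO 1 is shown beside the counts that it moves.

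The main question was how loss of H3.3 in hepatocytes changes the transcripts of conjugation enzymes relative to both kinds of control. Against all 6 controls, 16 of 57 members rose (28.1%) and 17 fell (29.8%) at an adjusted p under 0.05 (quasi-likelihood F test of edgeR, Benjamini-Hochberg over all genes), and 24 did not pass. Over all genes tested, 19.7% rose and 16.6% fell. With an absolute log2 fold change over 1 in addition (DEG), 12 members were higher and 10 lower, where the background was 12.9% and 5.79% of all genes. The median log2 fold change of the members was -0.22, or -0.15 with members at the floor of 3 counts per library set to that floor, and that of all genes was -0.00. All 4 KO livers lay above all 6 controls in 11 members and below them in 11, against 12.5% and 12% of all genes. Without KO 1, 15 members rose and 23 fell, against 22.0% and 18.9% of all genes.

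Of the 21 members with a mean of 100 CPM or more, 3 rose (14.3%) and 9 fell (42.9%). These shares were near those of all genes at that level, of which 14.1% rose and 37.1% fell. In 6 of the 16 members that rose, namely Sult2a1, Sult2a3, Sult2b1, Sult4a1, Gstt4 and Ugt1a8, every control had 3 counts or fewer. These 6 reached the limit of 10 counts through the KO livers, so that they could rise but hardly fall, and they are given as counts below. All 6 are also among the 12 higher DEGs. The 16 risen members and the 12 higher DEGs thus include members that entered through the group where they are high. Their shares are no sign of a rise particular to the members.

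**Figure D1:**
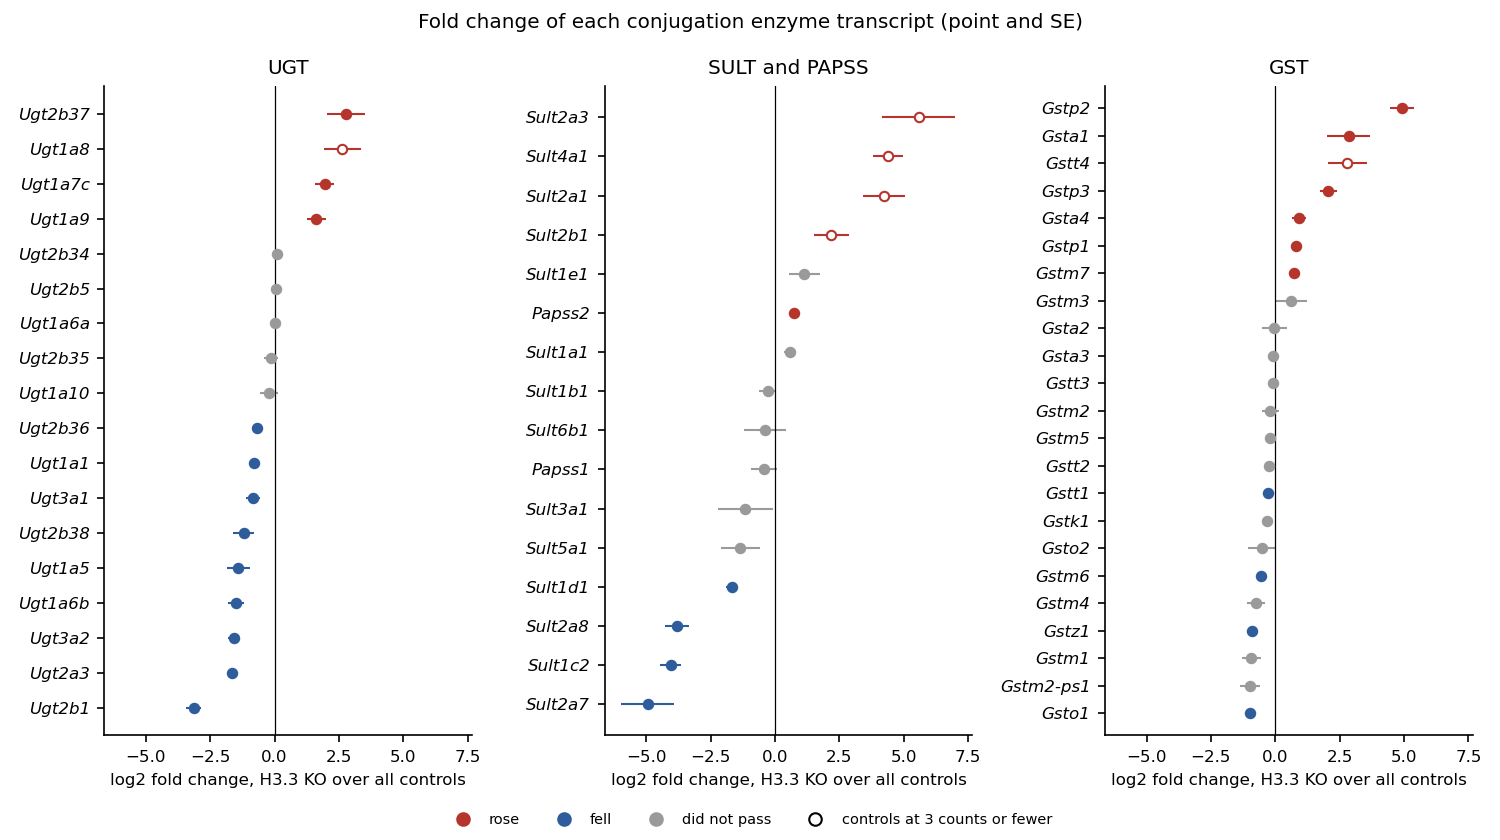
Log2 fold change of each of the 57 members in H3.3 KO livers (n = 4) over all controls (n = 6), with the point as the edgeR estimate and the bar as its SE, in 3 panels by family. Red points rose (16), blue points fell (17) and grey points did not pass (24), and open points mark the 6 members whose controls all had 3 counts or fewer, so that their position depends on the prior count.

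Of the 18 UGT members, 9 fell (50%), 4 rose (22.2%) and 5 did not pass, where 16.6% of all genes fell and 19.7% rose, and 37.1% of all genes of 100 CPM or more fell. Their summed level was 2410 to 3173 CPM in KO livers against 3654 to 4744 CPM in controls. The mean sum was 2866 ± 330 CPM (SD, n = 4) in KO livers and 4201 ± 389 CPM (SD, n = 6) in controls, or 68.2% of the control mean, and the groups did not overlap. Without KO 1, 8 fell (44.4%) and 4 rose (22.2%), against 18.9% and 22.0% of all genes. Ugt1a8, which is among those that rose, had 3 counts or fewer in every control and could hardly fall.

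Ugt2b1, a glucuronosyltransferase of the steroid-conjugating Ugt2 family, had the largest fall among the UGT members. It was measured at 69.8, 55.7, 46.1 and 56.1 CPM in the KO livers, at 363, 342 and 361 CPM in the WT Cre controls and at 526, 594 and 826 CPM in the MCS controls. The KO livers lay far below every control, and the MCS controls above the WT Cre controls. The log2 fold change against all controls was -3.14 (SE 0.28, adjusted p = 1.25e-05), and the mean level in KO was 11.3% of that in controls. Ugt2a3, which conjugates bile acids, was at 130, 95.5, 84.4 and 79.4 CPM in KO livers and at 285 to 333 CPM in controls, without overlap (log2 fold change -1.65, SE 0.14, adjusted p = 4.17e-06). Here both kinds of control were close, with 308 ± 22.3 CPM in WT Cre and 302 ± 15.7 CPM in MCS controls (SD, n = 3 each).

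The other Ugt2b transcripts did not follow Ugt2b1. Ugt2b36, one of the most abundant UGT transcripts, was at 783, 510, 453 and 373 CPM in KO livers and at 740 to 1065 CPM in controls (log2 fold change -0.70, SE 0.19, adjusted p = 0.0109). Only KO 1 lay within the range of the controls, and the other 3 KO livers were below it. Ugt2b5, the most abundant UGT transcript, was at 800 to 1034 CPM in KO livers and 750 to 1025 CPM in controls, and its difference did not pass (log2 fold change 0.04, SE 0.13, adjusted p = 0.839). Ugt2b34 was at 486 to 607 CPM in KO livers and 375 to 683 CPM in controls (log2 fold change 0.10, SE 0.17, adjusted p = 0.703), and Ugt2b35 at 182 to 280 CPM and 151 to 362 CPM (log2 fold change -0.15, SE 0.27, adjusted p = 0.712). The KO livers overlapped the controls in all 3. Ugt2b38 fell (log2 fold change -1.19), but 37.4% of its windows are shared. Its call was lost without KO 1 (adjusted p = 0.0679) and when libraries were scaled by size alone (adjusted p = 0.074). As FPKM, Ugt2b38 had a mean of 64.1 in controls and 63.3 in KO livers. Ugt2b37 rose, though with a wide spread: 0.782, 2.49, 5.52 and 19.9 CPM in KO livers against 0.556 to 1.65 CPM in controls (log2 fold change 2.78, SE 0.75, adjusted p = 0.017). KO 1 lay within the controls and KO 4 held most of the rise. In the FPKM table Ugt2b37 was at 9.09 to 17.8 in controls and 9.90 to 21 in KO livers, and the difference of log2(FPKM + 1) did not pass (log2 fold change 0.05, limma adjusted p = 0.888). With the reads of all Ugt2b genes summed, the log2 fold change was -0.40 (SE 0.12).

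**Figure D2:**
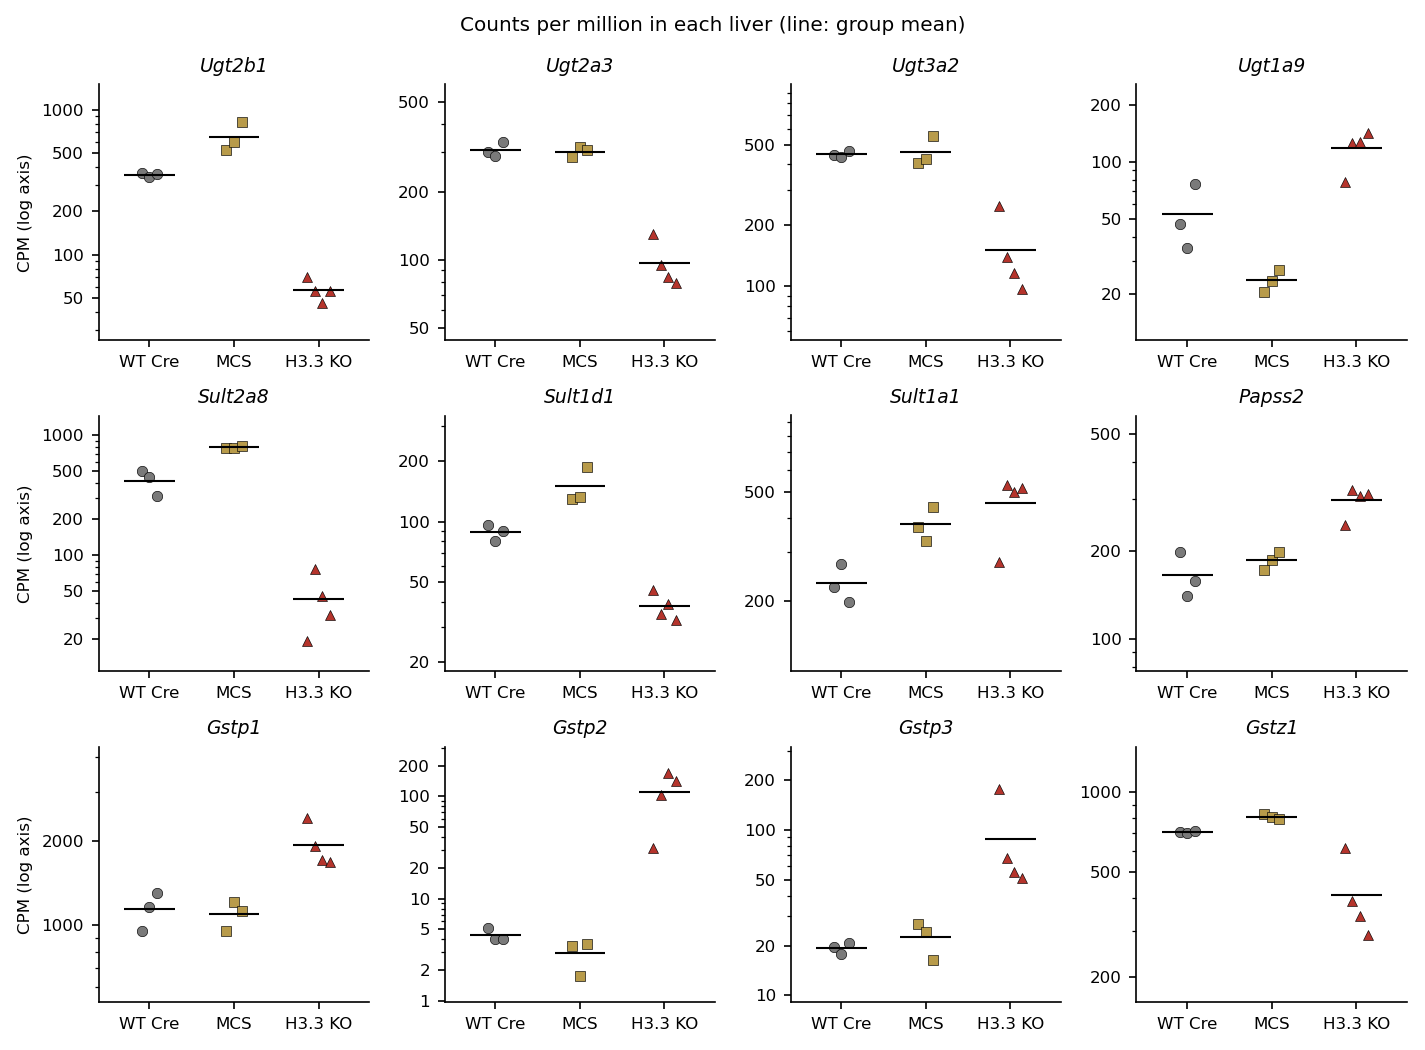
CPM (log axis) of 12 members in each liver, with circles for WT Cre controls (n = 3), squares for MCS controls (n = 3), triangles for H3.3 KO (n = 4) and a line at each group mean. KO livers lie below all controls in Ugt2b1, Ugt2a3, Ugt3a2, Sult2a8, Sult1d1 and Gstz1 and above them in Ugt1a9, Papss2, Gstp1, Gstp2 and Gstp3, while Sult1a1 overlaps through KO 1 at 277 CPM.

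The Ugt1a transcripts moved in opposite directions within 1 gene locus. Of 8 members 3 fell, 3 rose and 2 did not pass. Ugt1a1, the enzyme that conjugates bilirubin, was at 72.0, 88.5, 80.2 and 75.5 CPM in KO livers and at 105 to 165 CPM in controls (log2 fold change -0.79, SE 0.13, adjusted p = 0.000385). All KO livers were below all controls. Ugt1a6b was at 39.7, 20.6, 12.5 and 14.6 CPM against 48.2 to 74.7 CPM in controls (log2 fold change -1.49, SE 0.30, adjusted p = 0.00348), also without overlap. Ugt1a5 was at 56.8, 13.1, 15.9 and 15.7 CPM against 49.6 to 99.6 CPM (log2 fold change -1.41, SE 0.44, adjusted p = 0.0329), with KO 1 inside the controls and the other 3 KO livers far below. The call of Ugt1a5 was lost under 9 of 19 alternatives, among them leaving out any WT Cre control or any of KO 2, KO 3 and KO 4 (adjusted p up to 0.142 over all alternatives), whereas without KO 1 the fall was 2.17 on the log2 scale (adjusted p = 1.65e-05).

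Ugt1a9, a phenol-conjugating form, was the abundant Ugt1a member that rose. Its level was 77.8, 125, 127 and 142 CPM in KO livers, 47.0, 35.3 and 76.7 CPM in WT Cre controls and 20.6, 23.4 and 27.0 CPM in MCS controls. KO livers were above all controls, though KO 1 exceeded WT Cre 3 only slightly. The log2 fold change was 1.62 (SE 0.36, adjusted p = 0.00681). Ugt1a7c rose from 0.559 to 0.873 CPM in controls to 1.31 to 5.93 CPM (log2 fold change 1.95, SE 0.37, adjusted p = 0.0013), whereas its FPKM was 17.2 to 24.1 in controls and 12.3 to 22.3 in KO livers. Both tables thus gave opposite directions, and the cause was not tested. Ugt1a8 had 2, 6, 9 and 2 counts in KO livers and 0 to 2 counts per control library, a ratio of 7.19 (95% interval 2.39 to 29.1, for counting error only) between summed counts per summed TMM-adjusted library. With the reads of all Ugt1a genes summed, the log2 fold change was -0.26 (SE 0.13).

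Both members of the Ugt3a family, which use sugars other than glucuronic acid, fell. Ugt3a2 was at 250, 139, 117 and 97.5 CPM in KO livers and at 405 to 551 CPM in controls, without overlap (log2 fold change -1.59, SE 0.23, adjusted p = 0.000236). Ugt3a1 was at 76.2, 34.2, 28.6 and 34.8 CPM and at 66.0 to 105 CPM (log2 fold change -0.83, SE 0.26, adjusted p = 0.03). KO 1 lay within the controls in Ugt3a1 and was the highest KO liver in both. Only 1 of the 2 genes passed against WT Cre controls alone, and only 1 against MCS controls alone. The call of Ugt3a1 was lost with a block for the replicate number (adjusted p = 0.113).

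Sulfation transcripts showed the largest falls. Of the 14 SULT members, 4 fell and 4 rose (28.6% each, against 16.6% and 19.7% of all genes) and 6 did not pass, and all 4 that rose had 3 counts or fewer in every control. Without KO 1, 5 rose and 5 fell (35.7% each), against 22.0% and 18.9% of all genes. The summed level was 396 to 668 CPM in KO livers, 643 to 856 CPM in WT Cre controls and 1307 to 1512 CPM in MCS controls. The mean sum of 570 ± 120 CPM (SD, n = 4) was 52.6% of that of all controls (1084 ± 350 CPM, SD, n = 6). KO 2 lay slightly above WT Cre 3, and the MCS controls lay above all other livers.

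Sult2a8, a sulfotransferase of bile acids and the most abundant SULT transcript of control liver, carried most of that difference. It was at 19.3, 76.2, 45.7 and 31.7 CPM in KO livers, at 498, 445 and 308 CPM in WT Cre controls and at 784, 783 and 809 CPM in MCS controls. KO livers held 7.15% of the control mean without overlap (log2 fold change -3.80, SE 0.46, adjusted p = 0.000192). Its neighbour Sult2a7 was at 0.261, 0.277, 0.169 and 0 CPM in KO livers and at 1.65 to 16.7 CPM in controls (log2 fold change -4.94, SE 1.01, adjusted p = 0.00439). Sult1c2 fell from 4.25 to 6.92 CPM in controls to 0.0382 to 0.717 CPM (log2 fold change -4.05, SE 0.42, adjusted p = 2.21e-05). Sult1d1, which sulfates catecholamines, fell from 80.4 to 188 CPM to 45.7, 34.6, 38.9 and 32.4 CPM (log2 fold change -1.66, SE 0.23, adjusted p = 0.000236). In these 4 transcripts every KO liver was below every control. All 4 fell against each kind of control taken alone.

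Sult1a1, the phenol sulfotransferase, did not share the fall. It was at 277, 528, 501 and 517 CPM in KO livers, at 224, 272 and 198 CPM in WT Cre controls and at 370, 331 and 440 CPM in MCS controls. Of the KO livers 3 lay above every control and KO 1 within them, and the difference did not pass (log2 fold change 0.58, SE 0.24, adjusted p = 0.0786). It passed against WT Cre controls alone (log2 fold change 0.98, SE 0.21, adjusted p = 0.00544), not against MCS controls alone (0.26, SE 0.21, adjusted p = 0.373), and without KO 1 against all controls (0.75, adjusted p = 0.0172). Sult1a1 made up 70.0 to 86.1% of the summed SULT level in KO livers and 25.3 to 32.5% in controls, and Sult2a8 4.87 to 11.4% and 47.9 to 59.9%. These shares did not overlap between KO livers and controls.

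The 4 SULT members that rose had few counts in control liver. Sult4a1, a form known from brain, had 6, 21, 47 and 22 counts in KO livers and 0 to 2 counts per control, a ratio of 24.2 (95% interval 10.7 to 67.7). Sult2a1 had 2, 14, 14 and 4 counts against 2 counts in MCS 1 and 0 in the other controls, a ratio of 25.7 (6.60 to 221). Sult2a3 had 33 counts in KO 1, 4 in KO 2, 10 in KO 3 and 0 in KO 4, against 1 count in WT Cre 3 and 0 in the other controls. Most of its counts thus came from a single liver, and its call was lost without WT Cre 3 (adjusted p = 0.103) and with limma-voom. Sult2a3 passed against neither WT Cre controls alone (adjusted p = 0.108) nor MCS controls alone (adjusted p = 0.0854). Sult2b1, the cholesterol sulfotransferase, had 2, 4, 3 and 5 counts against 0 to 2, a ratio of 5.30 (1.66 to 22.1), and its call was lost under 6 of 17 alternatives. Summed with their neighbours, the Sult2a genes had a log2 fold change of -3.77 (SE 0.43), a sum that is mostly Sult2a8.

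The remaining SULT members were low or did not pass. Sult1b1 was at 46.5 CPM in KO 1 and at 13.5 to 19.7 CPM in the other KO livers, against 22.1 to 38.0 CPM in controls (log2 fold change -0.28, adjusted p = 0.549), and without KO 1 it fell (-0.77, adjusted p = 0.0104). Sult1e1, the estrogen sulfotransferase, had 5 to 14 counts in KO livers, 0 to 2 in WT Cre and 5 to 8 in MCS controls, and rose against WT Cre controls alone (adjusted p = 0.00646). Sult3a1 and Sult6b1 had at most 8 counts in any library.

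Of the enzymes that make the sulfate donor, Papss2 rose and Papss1 did not pass. Papss2, the main form in liver, was at 244, 321, 308 and 313 CPM in KO livers and at 140 to 199 CPM in controls, without overlap (log2 fold change 0.76, SE 0.12, adjusted p = 0.000448). Papss1 was at 8.67, 8.70, 10.3 and 7.92 CPM in KO livers, at 18.8, 20.0 and 18.0 CPM in WT Cre controls and at 4.52, 5.00 and 4.81 CPM in MCS controls. The KO livers lay between both kinds of control without touching either. Papss1 thus fell against WT Cre controls (log2 fold change -1.09, SE 0.12, adjusted p = 9.15e-05) and rose against MCS controls (0.90, SE 0.13, adjusted p = 0.000387), and the pooled difference was -0.42 (SE 0.50, adjusted p = 0.568).

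Among the classes of glutathione transferases with several genes, only the pi class had every member pass in the same direction. Of the 23 GST members, 7 rose (30.4%, against 19.7% of all genes), 4 fell (17.4%, near the 16.6% of all genes) and 12 did not pass. All 4 DEGs among them were higher, where 12.9% of all genes were higher DEGs. Gstt4 is among these DEGs, but every control had 3 counts or fewer, so that it could rise but hardly fall. Without KO 1, 5 rose (21.7%) and 10 fell (43.5%), against 22.0% and 18.9% of all genes. The balance of the family thus moved with that liver. The summed level was 6053 to 10414 CPM in KO livers, 9229 to 11831 CPM in WT Cre controls and 6748 to 6927 CPM in MCS controls, with KO 1 the highest KO liver. The KO mean of 7674 ± 1894 CPM (SD, n = 4) was 90.3% of the control mean (8500 ± 2031 CPM, SD, n = 6), and the ranges overlapped.

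All 3 pi-class genes rose. Gstp1, the main male form in mouse liver, was at 2429, 1925, 1708 and 1677 CPM in KO livers and at 950 to 1307 CPM in controls (log2 fold change 0.79, SE 0.14, adjusted p = 0.000759). Gstp3 was at 177, 67.5, 55.8 and 51.1 CPM against 16.3 to 27.2 CPM (log2 fold change 2.06, SE 0.34, adjusted p = 0.00125), and KO 1 held the highest value. Gstp2 was at 31.7, 102, 171 and 141 CPM against 1.74 to 5.13 CPM (log2 fold change 4.92, SE 0.46, adjusted p = 5.61e-05), and there KO 1 held the lowest. Every KO liver was above every control in all 3. The size of the Gstp2 rise depended on the table: in the FPKM table it was listed at 706 to 1027 in controls and 1055 to 1576 in KO livers, and the log2 fold change of log2(FPKM + 1) was 0.71. With the 3 genes summed, which does not depend on the split between copies, the log2 fold change was 0.90 (SE 0.13), from 1142 to 2134 CPM. Gstp1 rose by 0.76 on the log2 scale against WT Cre controls (SE 0.17) and by 0.82 against MCS controls (SE 0.17).

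In the alpha class, Gsta1 and Gsta4 rose and Gsta2 and Gsta3 did not pass. Gsta1 was at 56.0, 24.7, 30.8 and 40.7 CPM in KO livers, at 5.75, 5.47 and 17.2 CPM in WT Cre controls and at 0.936, 0.804 and 1.06 CPM in MCS controls (log2 fold change 2.85, SE 0.83, adjusted p = 0.026). The KO livers were above all controls, but the controls of different kind were far apart. The call was lost without KO 1 (adjusted p = 0.0532), without KO 4 and with a block for the replicate number (adjusted p = 0.0965). Gsta4, which conjugates the lipid peroxidation product 4-hydroxynonenal, was at 183 to 245 CPM in KO livers, 105 to 205 CPM in WT Cre and 72.6 to 77.4 CPM in MCS controls (log2 fold change 0.92, SE 0.27, adjusted p = 0.0215). Its call was also lost without KO 1 (adjusted p = 0.0653) and with that block (adjusted p = 0.0786). Gsta3, the most abundant alpha form, was at 2989, 1871, 1677 and 1478 CPM against 1901 to 2455 CPM in controls (log2 fold change -0.08, SE 0.18, adjusted p = 0.77). KO 1 was above all controls and the other 3 KO livers were below them, and without KO 1 Gsta3 fell (-0.34, adjusted p = 0.0368).

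In the mu class, 1 of 8 members rose, 1 fell and 6 did not pass. Gstm1, which had the highest mean CPM of the members over all livers but not within the MCS controls or the KO livers, was at 2064, 1417, 1580 and 1078 CPM in KO livers, at 3822, 3580 and 5233 CPM in WT Cre controls and at 1696, 1667 and 1599 CPM in MCS controls. The KO livers lay below the WT Cre controls and on both sides of the MCS controls (log2 fold change against all -0.93, SE 0.38, adjusted p = 0.0757). Gstm7 rose (84.2 to 88.6 CPM in MCS, 56.9 to 64.8 CPM in WT Cre and 87.6 to 167 CPM in KO livers, log2 fold change 0.72, SE 0.18, adjusted p = 0.00741) and Gstm6 fell (log2 fold change -0.56, adjusted p = 0.0201). Without KO 1, Gstm2, Gstm4 and Gstm5 also fell, with log2 fold changes of -0.72, -1.20 and -0.48.

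Of the other classes, Gstz1, which acts in tyrosine breakdown as maleylacetoacetate isomerase, was at 617, 389, 341 and 289 CPM in KO livers and at 700 to 829 CPM in controls (log2 fold change -0.89, SE 0.18, adjusted p = 0.00201). Gsto1, the omega form that reduces arsenic compounds and dehydroascorbate, was at 48.6, 43.3, 41.8 and 33.7 CPM against 76.9 to 89.3 CPM (log2 fold change -0.98, SE 0.10, adjusted p = 2.28e-05). Both groups were apart in Gstz1 and Gsto1. Gstt1 fell by a small amount, from 302 to 350 CPM in controls to 307, 245, 258 and 258 CPM (log2 fold change -0.29, SE 0.10, adjusted p = 0.0412), and its call did not hold when libraries were scaled by size alone (adjusted p = 0.429). Gstk1, the mitochondrial kappa form, did not pass (log2 fold change -0.31, SE 0.12, adjusted p = 0.0518), and fell without KO 1 (-0.45, adjusted p = 0.00144). Gstt4 had 3, 2, 3 and 4 counts in KO livers and 0 or 1 per control, a ratio of 9.09 (2.02 to 83.6).

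**Figure D3:**
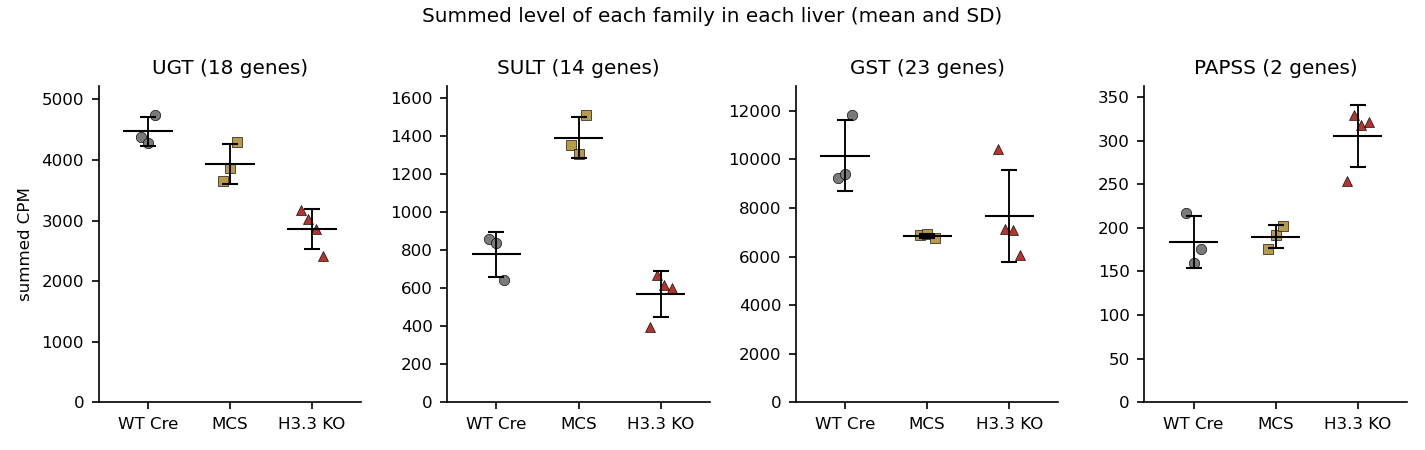
Summed CPM of the members of each family in each liver (circles, WT Cre, n = 3; squares, MCS, n = 3; triangles, H3.3 KO, n = 4), with the group mean as a line and the SD as a bar, on axes that start at 0. The UGT sum of KO livers lies below and the PAPSS sum above all controls, whereas KO 2 reaches the WT Cre controls in SULT and the GST sum overlaps.

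The makeup of each family shifted with these changes. In UGT, Ugt2b5 took 26.4 to 34.2% of the summed level in KO livers and 18.1 to 23.9% in controls, and Ugt2b1 1.61 to 2.33% and 7.60 to 19.3%. In GST, Gstp1 took 23.3 to 27.7% in KO livers and 10.3 to 17.4% in controls, and Gstm1 17.8 to 22.2%, 38.1 to 44.2% in WT Cre and 23.7 to 24.7% in MCS controls. Neither Ugt2b5, Ugt2b1 nor Gstp1 shares overlapped between KO livers and controls. Shares of 1 family add to a fixed total, so a fall of one transcript raises the share of the rest. Levels were also divided by the length of all annotated exons of a gene, leaving out the Ugt1a genes with their shared exons. On that scale Gstm1 was highest in controls (1991 CPM per kilobase), followed by Gstp1 (722), Gsta3 (487), Ugt2b5 (476) and Ugt2b36 (418). In KO livers Gstp1 was highest (1250 CPM per kilobase), followed by Gstm1 (1042), Ugt2b5 (489) and Gsta3 (461). On that scale Gstm1 and Gstp1 in KO livers differed by less than their SDs added (278 and 225 CPM per kilobase). The FPKM values gave another order. Their KO means were 3380 for Gstp1, 1543 for Gsta3, 1361 for Gstp2, 1351 for Gstm1 and 492 for Ugt2b5. In controls they were 2366 for Gstm1, 1669 for Gstp1, 1385 for Gsta3, 827 for Gstp2 and 442 for Ugt2b5. The ranking of genes thus depended on the scale, and the cause was not tested.

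**Figure D4:**
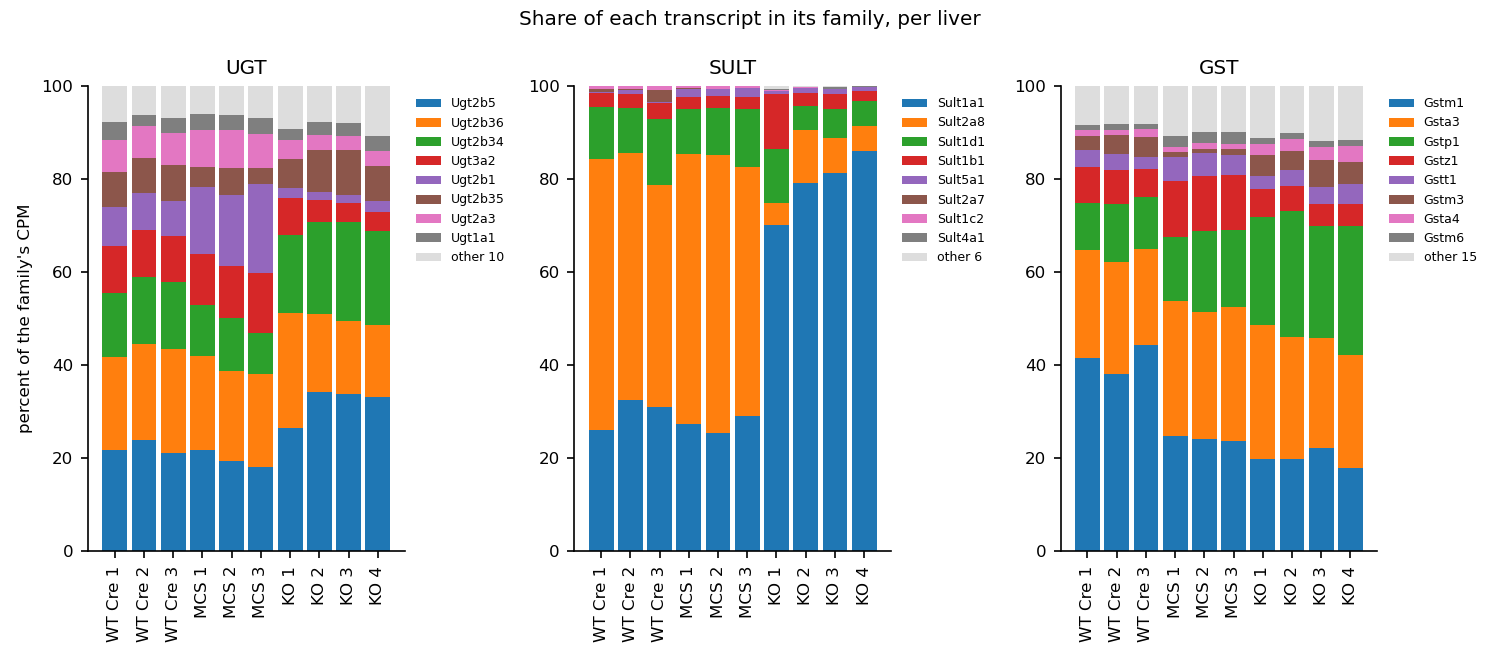
Percent of the summed CPM of each family taken by its 8 largest members and the rest, in each of the 10 livers, stacked to 100. In SULT, Sult1a1 takes 70.0 to 86.1% in the 4 KO livers and 25.3 to 32.5% in the 6 controls, where Sult2a8 takes 47.9 to 59.9%.

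Each kind of control was also compared alone with the KO livers in a fit of all 3 groups. Against WT Cre controls 13 members rose and 18 fell, where 15.3% and 13.1% of all genes did. Against MCS controls 16 rose and 15 fell, where 17.3% and 14.8% of all genes did. Both comparisons share the KO livers. The difference between both kinds of control tests whether the comparisons differ, and 7 members were higher and 2 lower in WT Cre than in MCS controls (12.3% and 3.51% of members, against 0.441% and 0.486% of all genes). Among the 9 were 4 transcripts of the GST family, and each is described by its values.

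Gstm3 was at 281, 372 and 517 CPM in WT Cre controls, at 75, 67.2 and 87.2 CPM in MCS controls and at 285 to 455 CPM in KO livers (WT Cre over MCS log2 fold change 2.35, SE 0.25, adjusted p = 0.00117). Its KO livers overlapped the WT Cre and not the MCS controls. Gsta1 (3.35, SE 0.57, adjusted p = 0.0322), Gstm1 (1.35, SE 0.22, adjusted p = 0.0116) and the pseudogene Gstm2-ps1 (1.39, SE 0.20, adjusted p = 0.00523) were likewise higher in WT Cre controls. Of the windows of Gstm2-ps1 46.9% are shared, most of them with Gstm1, so its reads and those of Gstm1 cannot be fully told apart. Papss1 differed by 1.99 (SE 0.14, adjusted p = 9.69e-05), Ugt2b34 by 0.65 (SE 0.13, adjusted p = 0.0342) and Ugt2b35 by 0.94 (SE 0.19, adjusted p = 0.036). The calls of Ugt2b34 and Ugt2b35 were weak: that of Ugt2b34 was lost when any of the 6 controls was left out (adjusted p up to 0.157) and that of Ugt2b35 without any of 5 of them (up to 0.155). Lower in WT Cre controls were Sult5a1, at 3.38, 6.07 and 2.14 CPM against 21.9, 18.5 and 29.2 CPM (-2.59, SE 0.40, adjusted p = 0.0152), and Ugt2b1 (-0.87, SE 0.18, adjusted p = 0.0439). The call of Ugt2b1 was lost under 8 of 16 alternatives (adjusted p up to 0.204), that of Gsta1 under 7 (up to 0.134), that of Gstm1 under 3 (up to 0.0695) and that of Sult5a1 under 2 (up to 0.0812). Papss1, Gstm3 and Gstm2-ps1 passed under all 16. The KO livers had 2.93 to 6.96 CPM of Sult5a1, within or just above the WT Cre range and below all MCS controls. KO and WT Cre livers received Cre and MCS livers did not, whereas KO and MCS mice were floxed and WT Cre mice were not, and which of these goes with a difference was not tested.

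**Figure D5:**
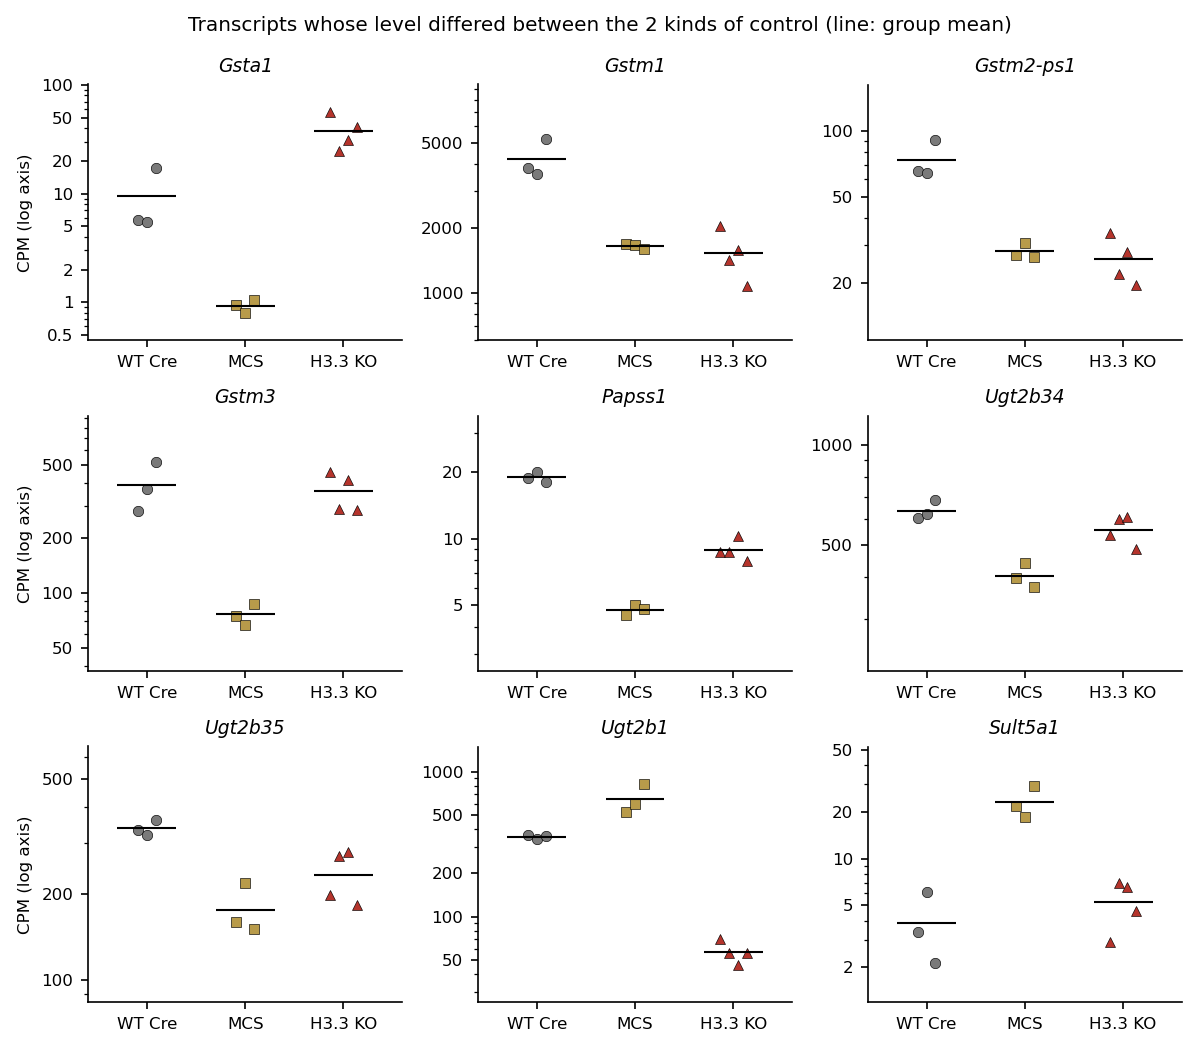
CPM (log axis) of the 9 members whose level differed between WT Cre (circles, n = 3) and MCS controls (squares, n = 3), with H3.3 KO livers (triangles, n = 4) and a line at each group mean. KO livers lie near the MCS controls in Gstm1 and Gstm2-ps1, near the WT Cre controls in Gstm3 and Sult5a1, between both in Papss1, and outside both in Gsta1 and Ugt2b1.

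Genes around the conjugation enzymes were read from lists of the pathway. Of 13 genes of other conjugation reactions, by acetyl, methyl, glycine or taurine groups, 9 fell (69.2%) and 1 rose (7.69%). The median log2 fold change of the 13 was -0.73. Over all genes tested 16.6% fell and 19.7% rose. Among all genes of 100 CPM or more, 37.1% fell and 14.1% rose. Nat1, an arylamine N-acetyltransferase, was at 0.391, 0.119, 0.0421 and 0.0382 CPM in KO livers and at 1.06 to 2.06 CPM in controls (log2 fold change -3.68). Baat, which joins bile acids to taurine and glycine, was at 177, 62.7, 50.9 and 42.5 CPM against 299 to 326 CPM (log2 fold change -1.91), and As3mt, the arsenite methyltransferase, rose (1.18), from 44.5 to 52.6 CPM to 101 to 113 CPM. KO livers and controls did not overlap in any of these 3.

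Of 7 exporters of conjugates, 3 rose and 3 fell (42.9% each, against 19.7% and 16.6% of all genes). Abcc3, which moves glucuronides into blood, was at 38.0, 25.6, 26.2 and 29.1 CPM in KO livers and at 238 to 427 CPM in controls (log2 fold change -3.40, SE 0.19), whereas Abcc4, another exporter into blood, was at 19.2 to 37.1 CPM against 2.10 to 16.1 CPM (1.95, SE 0.63). Abcc2, which moves conjugates into bile, did not pass (-0.12, SE 0.17). Of 10 genes of sulfate supply and removal, 4 fell (40%) and 1 rose (10%). The largest fall was in Suox, the sulfite oxidase that makes sulfate, at 26 to 51 CPM against 144 to 166 CPM (-1.99, SE 0.16). Of 7 genes of glucuronic acid supply, 2 fell and 2 rose (28.6% each). Among them were Ugp2, which makes UDP-glucose (-0.96, SE 0.17), and Gusb, the lysosomal beta-glucuronidase (0.71, SE 0.12). Of 10 genes of glutathione supply 2 rose (20%) and 1 fell (10%), and the median log2 fold change was -0.01. Without KO 1, 3 rose and 3 fell in that list (30% each), against 22.0% and 18.9% of all genes. Of 8 other transferases of glutathione and related enzymes, 3 rose (37.5%) and 1 fell (12.5%). The fall was in Mgst1, the microsomal form, from 3874 to 4449 CPM to 3654, 2144, 2151 and 1887 CPM (-0.75, SE 0.17).

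Of 14 regulators, 7 fell (50%) and 2 rose (14.3%), against 16.6% and 19.7% of all genes. Among those that fell were Nr1i3, which encodes the drug sensor CAR (-1.34, SE 0.26), and Ahr, the receptor of dioxin-like compounds, at 15.3 to 21.4 CPM against 28.1 to 47.3 CPM (-1.1, SE 0.15), and Keap1 was the larger of both rises (0.40, SE 0.09). Nr1i2, which encodes the drug sensor PXR (-0.08, SE 0.12), and Nfe2l2, which encodes NRF2 (0.56, SE 0.25), did not pass. Of 8 targets of NRF2 outside the members, 3 rose (37.5%, against 19.7% of all genes) and 0 fell (against 16.6%) at the same test. Those that rose were G6pdx (1.66), Pgd (1.26) and Hmox1 (1.1), and the median log2 fold change of the 8 was 0.88. Nqo1, Gclc, Gclm, Srxn1 and Txnrd1 did not pass. The levels of these genes are given beside those of the members as a description, and no link between them was tested.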

How the data were processed

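RNA of 10 mouse livers was measured as poly(A) libraries made with a strand-keeping kit. The count table was deposited by the authors as raw read counts per gene, and a companion table was deposited as FPKM, the authors' values per kilobase and library. Per the study's methods, reads were trimmed with Trim Galore, aligned to mm10 with STAR and counted with HOMER; the submitters' processing notes list STAR, HTSeq and Cufflinks. The use of strand and how reads matching several genes were treated are not given in the sources used here. FPKM cells left blank by the authors were not read as 0, so FPKM values were tested only for genes with a value in all 10 libraries (48 of 57 members).

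Groups were taken from the sample titles and the columns were matched by number. No per-sample column was left unmatched (0). Genes with at least 10 counts over all libraries (22449) were fitted in edgeR 4.0.16 under R 4.3.3 (TMM scaling, robust quasi-likelihood fit, F test). KO was compared with all 6 controls in a fit of 2 groups, and with each kind of control in a fit of 3 groups. P-values were adjusted over all genes tested by Benjamini-Hochberg, and the test was checked on simulated data. The labels number the livers as replicates, and p-values measure the spread between these libraries. Ratios of summed counts carry exact 95% binomial intervals, which cover counting error only, as reads are not independent molecules. Libraries held 14998426 to 26096141 counts, and chi-square per degree of freedom between replicates was 10.3 to 96.7, so no library was a copy of another. Gene positions and exon lengths came from GENCODE M21 and upstream windows from RefSeq.

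Named genes were both Papss genes, the 3 most abundant members of each family, the 5 largest rises and 5 largest falls among its DEGs, members that differed between kinds of control, and at most 2 rises and 2 falls of each pathway list. Other members are named where a class is counted out. Outside this rule, Abcc2, Nr1i2, Nfe2l2, Hmox1 and the NRF2 targets that did not pass were named after their values were seen. The members and lists were chosen with earlier results of these data known. Alternatives were scaling by library size, DESeq2 1.42.0, limma-voom (limma 3.58.1), filterByExpr, no filter, a replicate block, log2(FPKM + 1), log2(FPKM + 0.1), summed paralogs and leaving out each library in turn.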

Additional observations from a re-analysis of the deposited data

Results flagged for a closer look

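Among 68 groups of 4 or 6 values, 5 held a liver far from the rest, measured as its gap to the nearest value divided by the range of the group, where chance gives about 1 in 20. KO 1 was the lowest KO liver in Papss2 (0.845) and Sult1a1 (0.918) and the highest in Ugt1a5 (0.870). In the controls, MCS 1 was the highest in Sult2a1 (1, from 2 counts against 0 in the rest) and WT Cre 3 in Sult2a3 (1, from 1 count).

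The difference from KO depended on the kind of control in 9 members, as tested by WT Cre over MCS controls. That log2 difference was 3.35 for Gsta1, 1.35 for Gstm1, 1.39 for Gstm2-ps1, 2.35 for Gstm3, 1.99 for Papss1, 0.65 for Ugt2b34, 0.94 for Ugt2b35, -0.87 for Ugt2b1 and -2.59 for Sult5a1. Vector and genotype both differ between these controls and cannot be told apart.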

How the results depend on the processing

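The 34 named members gave 624 values over the alternatives, of which 561 kept their direction and side of the threshold, 25 lost the call, 13 gained it and 25 turned direction. The cause of these changes was not tested, except that summing a subfamily by name adds the reads of other genes.

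Higher DEGs numbered 12, but 7 with filterByExpr, 5 with log2(FPKM + 1) and 7 with log2(FPKM + 0.1), where fewer low members were tested. Members higher in WT Cre than in MCS controls numbered 3 to 8 with a library left out, and lower ones 0 to 7 (7 without KO 1) and 1 with filterByExpr. Genes of a subfamily were summed by name, also where they share few reads. Of its windows Gsta3 shares 0.273% and Gstt4 0%. Such a sum follows its most abundant genes and is not an estimate for the single member. The sums gave log2 fold changes of -0.054 for Gsta1, -0.67 for Gstm3, -0.25 for Gstt4 and -3.77 for Sult2a1 and Sult2a3. They were -0.26 for Ugt1a7c, Ugt1a8 and Ugt1a9 and -0.40 for Ugt2b34, Ugt2b37 and Ugt2b5, all turned in direction. Gsta3 turned to 0.079 with library size only, 0.012 with the replicate block and 0.13 with both FPKM settings, and ranged from -0.34 to 0.045 with a library left out. Papss1 turned to 0.069 with log2(FPKM + 0.1). Ugt1a7c turned to -0.27 and -0.28 with log2(FPKM + 1) and log2(FPKM + 0.1). Ugt2b35 turned to 0.0099 with library size only, 0.082 with log2(FPKM + 1) and 0.085 with log2(FPKM + 0.1). Ugt2b5 ranged from -0.020 to 0.094 with a library left out. Library size only moved the median of all genes to 0.17.

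With the replicate block, 12 members rose (21.1%) and 13 fell (22.8%), against 15.8% and 12.3% of all genes. At that setting 9 and 9 were DEGs, and 13 and 17 passed against WT Cre, 17 and 13 against MCS and 7 and 3 between controls. Only the KO group has a replicate 4, so the block in effect leaves KO 4 out of the KO estimate. Whether the numbers pair the livers could not be decided, as only 3 livers per group could be compared. Of 9 same-number correlations, 4 were over 0.1 (-0.07 to 0.16). Between WT Cre and MCS controls they were 0.119, 0.122 and 0.0940, against -0.133 to 0.0179 for different numbers. Those with KO livers ranged from -0.0724 to 0.157.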
